A study of Mus musculus with 16 samples.

Results

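The 54 genes described here encode the machinery that copies DNA and divides the cell, and they were listed by their known function, from 21938 protein-coding genes of the GENCODE M21 annotation. They comprise 15 licensing and helicase genes, 14 genes of the replication fork, 3 genes of nucleotide supply, 8 E2F factors and S-phase cyclins, and 14 mitotic genes. For each gene, open chromatin was read from ATAC-seq peaks whose summit lay within 1 kb of an annotated transcript start (the promoter) and from all peaks in the gene body plus 10 kb on either side. ATAC-seq uses a transposase that inserts sequencing adapters into open DNA, so that peaks of reads mark accessible chromatin. The cells were C2C12 iMyoD1, a polyclonal population of mouse C2C12 myoblasts that keeps its endogenous Myod1 and also carries doxycycline-inducible Halo-MyoD1 alleles driven by the TRE3GS promoter, and all 4 groups shared this genotype. The 4 groups crossed a 24 h treatment, doxycycline (+dox) or its vehicle (no dox), with a medium: cells were kept either in growth medium (GM, proliferating, seeded at 75000 cells per well) or during 24 h of serum starvation (DM, differentiating, seeded at 300000 cells per well). Medium and seeding density therefore changed together, and their effects cannot be told apart. Each group had 4 biological replicates, of which replicate 1 of both DM groups was left out in the study's methods as a quality outlier, leaving 8 GM and 6 DM libraries.

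Before a cell divides, the origin recognition complex, Cdc6 and Cdt1 load the MCM helicase onto origins, and Cdc45 and the GINS complex then turn it into an active helicase behind which the fork polymerases work. The genes are transcribed in waves: E2F factors, held back by RB family proteins in resting cells, drive the S-phase genes, whereas the mitotic genes carry a CHR element and CCAAT boxes read by the DREAM complex, B-MYB-MuvB, FOXM1 and NF-Y. Myoblasts leave the cell cycle as they differentiate, and the transcripts of these genes are known to fall when they do. The comparison of DM with GM asks whether their promoters close within the same day.

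The 14 lists held between 14710 peaks (GM no dox replicate 1, the shortest and a library that stood apart) and 58587 peaks, and the background coverage implied by the peaks was 0.339 to 1.13 fragments per base. Ranks were therefore taken among the 14710 strongest peaks of every list. The muscle markers Myod1 and Chrna1 had promoter peaks in 14 of 14 lists, Des in 13, Cdh15 in 10, Itga7 in 9 and Myf5 in 6. Of 9 markers of other cell types, 8 had no promoter peak in any list, and the endothelial marker Pecam1 had one in 8 lists. Among the 14710 strongest peaks, Myod1 and Chrna1 had a promoter peak in 14 lists, Cdh15 in 3 and the other markers in 0. Peaks in the gene body or within 10 kb were also listed at markers of other cell types, at Pecam1 in 14 lists, Cdh1 in 13, Sox10 in 10, Cdh5 in 7 and Ptprc and Cd3e in 1 each.

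The sequences below were read from GRCm38, the assembly behind mm10, and each ends at the base before the annotated start nearest the peak summit. They are shown because their motifs differ by role. Capitals mark exact matches on either strand to E2F sites (TTTGGCGC, TTTCCCGC, TTTGCCGC or TTTCGCGC), CHR elements (TTTGAA or TTCGAA) and CCAAT boxes, which read ATTGG on the other strand. Mcm5 and Mcm6 encode subunits of the helicase ring, Cdk1 the mitotic kinase, Ccnb2 a B-type cyclin, Top2a the topoisomerase that untangles sister chromatids, and Cdc20 an activator of the anaphase-promoting complex.
Mcm5: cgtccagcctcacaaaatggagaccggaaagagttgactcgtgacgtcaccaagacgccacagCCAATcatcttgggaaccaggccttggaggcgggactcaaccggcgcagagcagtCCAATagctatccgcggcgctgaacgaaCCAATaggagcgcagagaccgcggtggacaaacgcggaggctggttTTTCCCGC
Mcm6: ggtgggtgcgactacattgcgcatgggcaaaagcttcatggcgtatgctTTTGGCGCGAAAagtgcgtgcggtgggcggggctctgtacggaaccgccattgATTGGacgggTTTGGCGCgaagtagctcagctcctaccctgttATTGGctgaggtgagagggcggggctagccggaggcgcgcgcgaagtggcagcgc
Cdk1: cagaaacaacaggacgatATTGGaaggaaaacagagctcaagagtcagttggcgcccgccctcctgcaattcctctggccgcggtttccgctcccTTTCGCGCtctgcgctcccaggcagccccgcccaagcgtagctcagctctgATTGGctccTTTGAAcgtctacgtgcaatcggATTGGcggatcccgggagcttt
Ccnb2: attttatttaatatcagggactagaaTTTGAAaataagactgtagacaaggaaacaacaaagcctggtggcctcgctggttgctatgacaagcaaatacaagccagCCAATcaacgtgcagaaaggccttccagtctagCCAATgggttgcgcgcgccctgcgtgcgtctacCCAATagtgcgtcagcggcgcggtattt
Top2a: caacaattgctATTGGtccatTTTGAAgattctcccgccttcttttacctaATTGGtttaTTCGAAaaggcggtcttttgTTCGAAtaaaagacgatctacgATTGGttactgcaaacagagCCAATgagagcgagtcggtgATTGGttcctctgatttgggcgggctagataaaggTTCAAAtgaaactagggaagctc
Cdc20: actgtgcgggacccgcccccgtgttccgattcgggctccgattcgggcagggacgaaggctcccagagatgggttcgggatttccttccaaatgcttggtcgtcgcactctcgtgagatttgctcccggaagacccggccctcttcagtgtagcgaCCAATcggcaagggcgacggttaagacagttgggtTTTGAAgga
In order, these lie at chr8:75109369-75109568 on the plus strand, chr1:128359665-128359864 on the minus strand, chr10:69352939-69353138 on the minus strand, chr9:70421548-70421747 on the minus strand, chr11:99024190-99024389 on the minus strand and chr4:118437353-118437552 on the minus strand. Mcm5 held 1 E2F match, directly upstream of the start, and 3 CCAAT boxes. Mcm6 held 3 E2F matches, 2 of which overlap on opposite strands. Cdk1 held 1 E2F match, 1 CHR element and 3 CCAAT boxes in the same 200 bases. Top2a held 4 CHR matches and 5 CCAAT boxes, the most of the 6.

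Over all members, motifs were counted within 100 bp of the summit of the strongest promoter peak, which 53 of the 54 genes had. An E2F match was found at 12 of the 53 members (22.6%), beside 2.71% of the 12993 protein-coding genes with a promoter peak. It was most frequent among the licensing and helicase genes, at 6 of 15: Mcm2, Mcm3, Mcm4, Mcm5, Mcm6 and Gins3. The fork genes had it at 4 of 14 (Rfc3, Pola1, Pole and Pold1) and the mitotic genes at 1 of 14 (Cdk1). CHR elements were found mainly at mitotic genes: 9 of 14 held one, against 1 of 15 licensing genes, 0 of 14 fork genes, 0 of 8 E2F and cyclin genes and 1 of the 2 nucleotide genes with a promoter peak (Rrm1), beside 6.24% of all genes. The 9 were Ccnb2, Cdk1, Cdc20, Aurkb, Bub1, Bub1b, Mki67, Top2a and Birc5. CCAAT boxes lay at 33 members (62.3%, beside 32.9% of all genes), and at 13 of 15 licensing genes. A CHR element together with a CCAAT box was found at 17.0% of members and 2.58% of all genes. The E-box CAGCTG, a sequence MyoD1 is known to bind, was found at 9.43% of members and 12.7% of all genes. These are matches of letters, with no test, and a gene without one may still be bound.

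**Figure D1:**
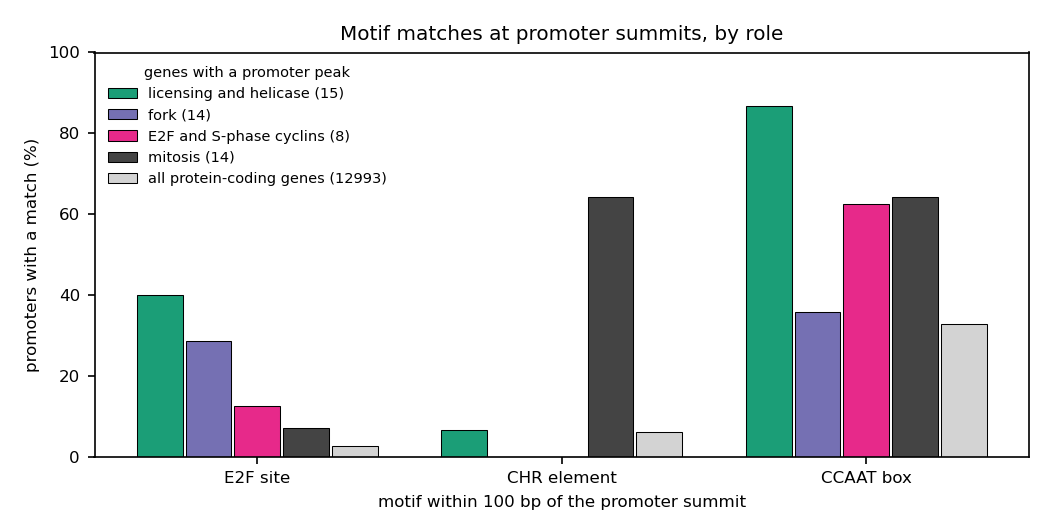
Percent of promoters (vertical axis) with an E2F site, a CHR element or a CCAAT box within 100 bp of the summit of the promoter peak. Bars are role groups of the members and, in grey, all 12993 protein-coding genes with a promoter peak; CHR elements stood at 9 of 14 mitotic genes and E2F sites at 6 of 15 licensing genes.

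Promoter summits of members sat close to the start, at a median distance of 56 bp (67 bp over all genes), and 40 of 53 lay within 100 bp of it. Median peak width was 546 bp against 553 bp, and median GC content 63.7% against 64.7%. The ratio of observed to expected CpG was 0.957 for members and 0.805 for all genes. A divergent gene, whose start lay within 1 kb on the other strand, was present at 12 members (22.6%) and 17.1% of all genes, and 6 of the 12 were licensing genes: Mcm4 (with Prkdc), Mcm7 (with Ap4m1), Cdc45 (with Ufd1), Orc1 (with Prpf38a), Orc6 (with Vps35) and Gins1 (with Abhd12). The others were Pole, Fen1, Lig1, Cdk2, Aurka and Foxm1. A peak at such a shared promoter cannot be assigned to one gene of the pair.

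Nearly all members had an accessible promoter in both media. In the lists as deposited, 34, 53, 48 and 53 of the 54 members had a promoter peak in GM no dox replicates 1 to 4, and 52, 52, 53 and 53 in GM +dox. The kept DM libraries (replicates 2 to 4) had 49, 49 and 53 in the no dox arm and 51, 53 and 53 in the +dox arm. The low value was that of GM no dox replicate 1, and without it the GM libraries covered 48 to 53 and the DM libraries 49 to 53. The mean share was 92.1% ± 12.2 (SD, n = 8) in GM and 95.1% ± 3.64 (SD, n = 6) in DM, beside 48.8% ± 9.04 and 50.2% ± 5.23 of all genes. Bulk libraries cannot tell a promoter that is open in fewer cells from one that is less open in each cell. The libraries left out had promoter peaks at 2 (DM no dox replicate 1) and 25 members (DM +dox replicate 1).

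In lists of common length the shares were lower for members and for all genes. Between 34 and 47 members had a peak in the 8 GM libraries and between 37 and 46 in the 6 DM libraries, with means of 76.6% ± 10.4 and 79.6% ± 6.42, beside 32.3% ± 3.40 and 34.9% ± 2.82 of all genes. Replicates 1 and 2, where kept, had lower counts than replicates 3 and 4 in every group, for example 36, 35, 46 and 47 in GM +dox. Replicates 1 and 2 of the GM groups spanned 34 to 41 and replicates 3 and 4 spanned 45 to 47, while the group means of GM and DM were 41.4 and 43.0, so replicate number separated the libraries more than medium did. Its part in the comparisons that follow was not tested beyond fits with a replicate block and within replicate numbers. In all, 33 of 54 members (61.1%) had a promoter peak in every one of the 14 deposited lists, beside 26.3% of all genes, and 25 (46.3%, beside 18.4%) in every list of common length.

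**Figure D2:**
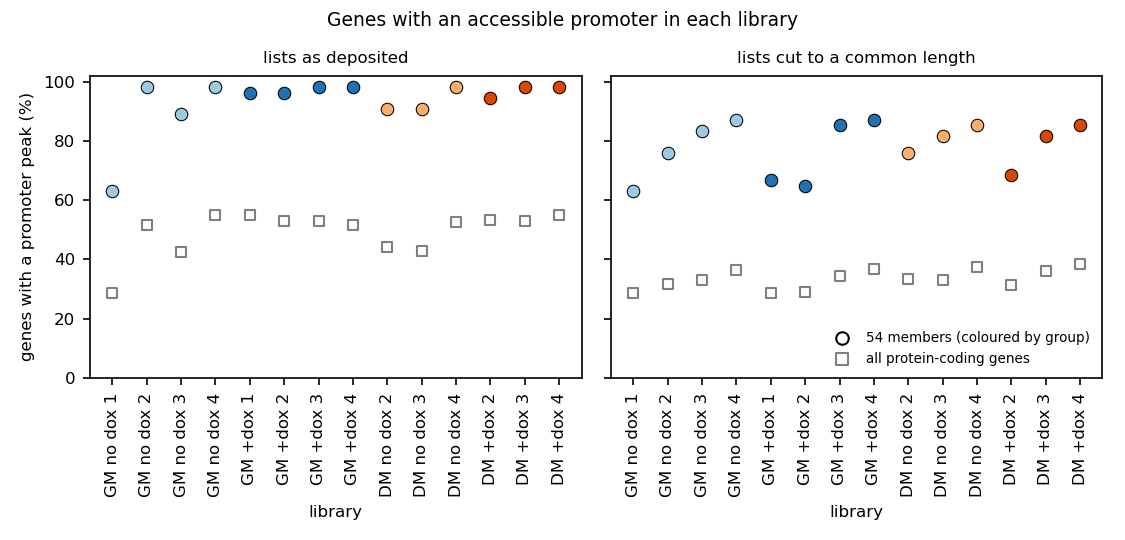
Percent of genes with a promoter peak (vertical axis) in each kept library, in the lists as deposited (left) and cut to 14710 peaks (right). Filled circles are the 54 members and open squares all protein-coding genes; GM no dox replicate 1 had 34 members in both panels, and the member shares of the DM libraries lay within the range of those of the GM libraries.

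The members not found everywhere were few. Of 21 missing from at least 1 deposited list, 14 were missing from GM no dox replicate 1 alone: Mcm2, Rfc1, Rfc3, Pola1, Pola2, Tyms, Lig1, E2f7, E2f8, Ccne1, Ccnb2, Cdk1, Bub1 and Mki67. Aurkb, the kinase of the chromosomal passenger complex, lacked a promoter peak in 1 list and Rfc2, a clamp loader subunit, in 2. The primase genes Prim1 and Prim2, whose products lay down the RNA primers, each lacked one in 4 lists, the checkpoint kinase gene Bub1b in 5 and E2f2 in 6. E2f2 had a promoter peak in 4 of 8 GM and 4 of 6 DM lists. Rrm2, which encodes the small subunit of ribonucleotide reductase, stood alone: none of the 16 lists held a peak in its promoter or within 10 kb of the gene (chr12:24708241-24714146), and the stretch without any peak in any list spanned 52.9 kb around it. A missing peak says that none was listed, not that the promoter was closed.

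Promoter strength was then defined as the percentile of a gene's strongest promoter peak by −log10 p among the 14710 strongest peaks of that library, so that 100 is the strongest peak of the list and 0 means no peak among them. Because −log10 p at the summit grows with the depth of coverage there as well as with fold enrichment, it orders peaks within a library and is not a measure of fold. Roles differed in level. The median strength over members was 71.6 for the licensing and helicase genes, 39.9 for the fork, 35.7 for the E2F and cyclin genes and 37.1 for the mitotic genes that could be tested, beside 46.8 over all genes tested. Of the licensing genes 13 of 15 had a promoter peak in all 14 lists of common length, compared with 3 of 14 fork genes, 1 of 3 nucleotide genes, 3 of 8 E2F and cyclin genes and 5 of 14 mitotic genes.

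**Figure D3:**
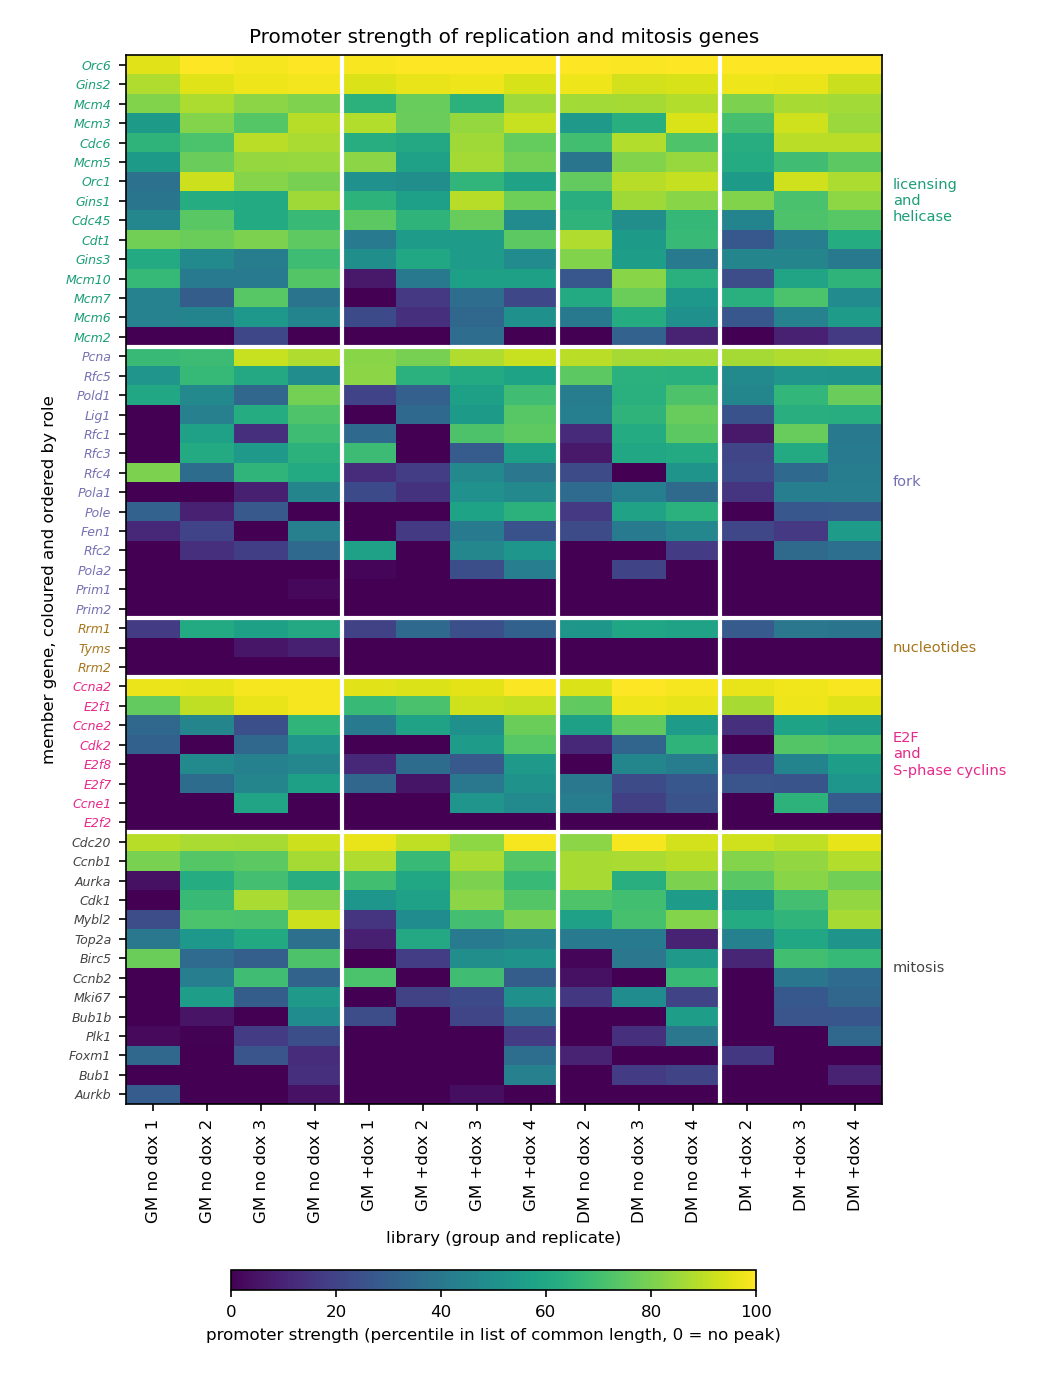
Promoter strength of the 54 members (vertical axis, ordered by role and mean) in the 14 kept libraries (horizontal axis), on a colour scale from 0, no peak among the 14710 strongest, to 100. Orc6, Gins2, Ccna2 and Cdc20 were bright in every column, Rrm2, Prim2 and E2f2 were at 0 in every column, and the median of a column was 22.4 to 60.7 in GM and 24.4 to 58.1 in DM.

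The strongest promoter of the set was that of Orc6, a subunit of the origin recognition complex that shares its promoter with Vps35. Its strength was 95.7, 99.8, 98.8 and 99.8 in GM no dox, 98.8, 99.9, 99.7 and 99.8 in GM +dox, 99.9, 99.5 and 99.9 in DM no dox and 99.7, 99.6 and 99.9 in DM +dox. It held rank 14 in its best list. Ccna2, the cyclin that partners Cdk2 in S phase and Cdk1 in early mitosis, ranged from 94.9 to 99.4 in GM and from 94.6 to 99.6 in DM. Cdc20 led the mitotic genes, with 82.9 to 98.7 in GM and 82.4 to 98.8 in DM, and Pcna, the sliding clamp, led the fork genes. For Orc6 the lowest GM value, 95.7, came from GM no dox replicate 1, and its DM values lay between 99.5 and 99.9.

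Whether promoters changed from GM to DM was tested with limma across all 8833 genes that had a promoter peak in at least 3 of the 14 lists of common length, of which 49 were members. None of the 49 members was called at a Benjamini-Hochberg adjusted p under 0.05, where 0.283% of all genes were called (13 higher in DM, 0.147%, and 12 lower, 0.136%). At an unadjusted p under 0.05, 1 member passed (2.04%), Mcm7, where 13.3% of all genes did. No member had its 6 DM values all above or all below its 8 GM values, as 0.566% of all genes did. The median difference, DM minus GM, was 3.03 percentile points over members and 5.38 over all genes tested, and 32 members (65.3%) against 74.6% of all genes had a positive difference. Replicate number was not balanced in this fit: GM kept replicate 1, a number with low counts, and DM did not. Both medians were lower with the replicate number as a block, as given below. No loss of promoter accessibility was thus detected for any member. With a median SE of 9.04 percentile points per member, small changes could not have been seen. Large ones could be missed too, as the largest difference of a member, 30.1 at Mcm7, was not called. The sign of the members' median is not stable: it was −4.73 with all 16 libraries, −0.81 with the replicate number as a block and −1.64 when genes were ranked among promoters only, settings in which the median of all genes also moved down, to −0.82, 2.77 and 0.63.

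By role, the median difference was 3.86 for the 15 licensing genes, 5.40 for the 12 fork genes tested, 3.03 for the 7 E2F and cyclin genes and 1.03 for the 14 mitotic genes. The 5 members not tested were Prim1, Prim2, Rrm2, Tyms and E2f2, whose promoter peaks were too weak or too few. Of these, Tyms, thymidylate synthase, had a strength of 6.06 and 8.67 in GM no dox replicates 3 and 4 and 0 in the other libraries. Prim1 had 1.99 in GM no dox replicate 4 and 0 elsewhere.

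**Figure D4:**
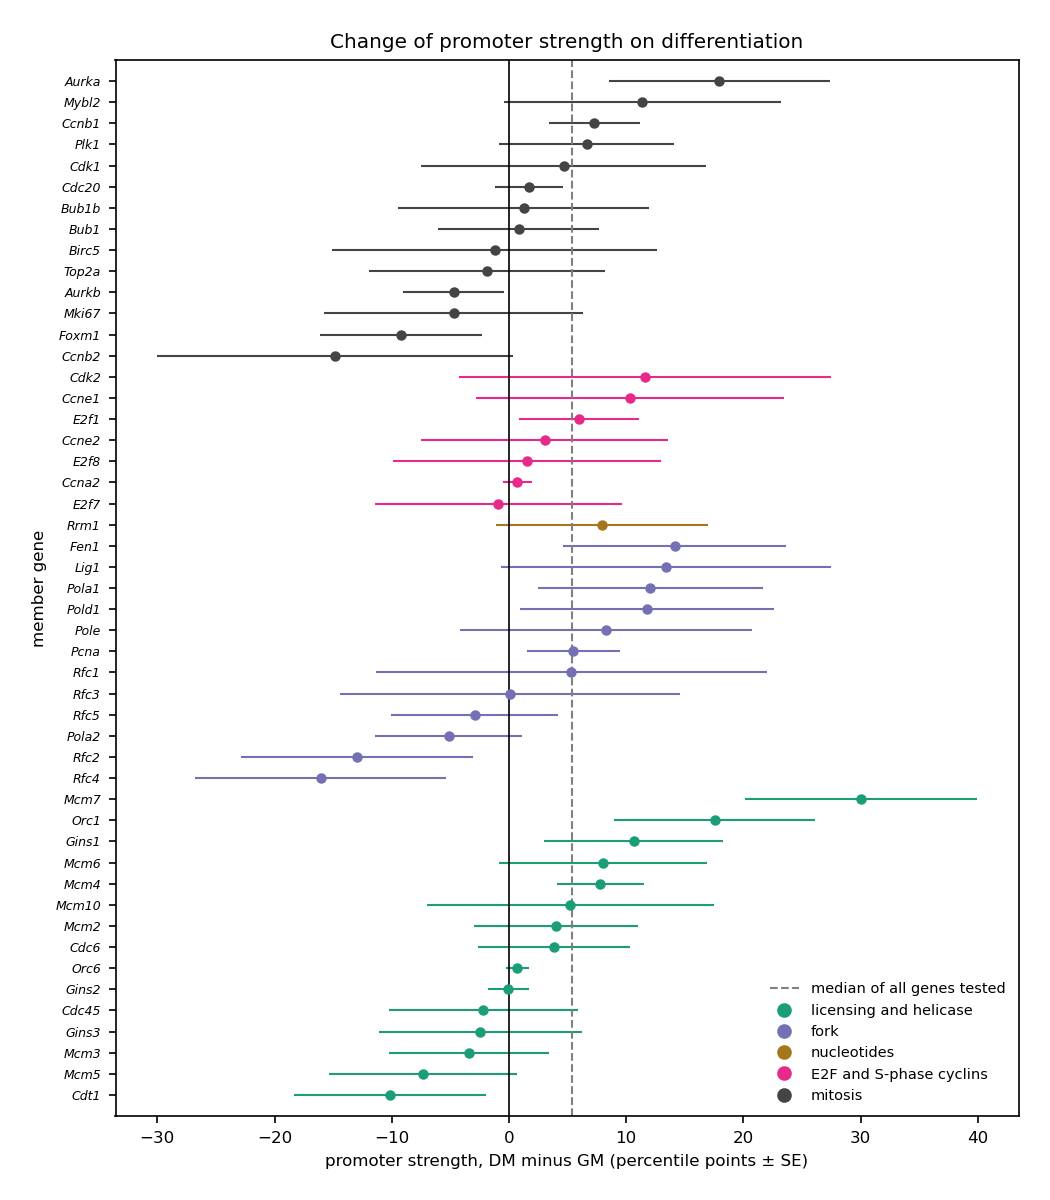
Difference in promoter strength, DM minus GM, in percentile points (horizontal axis) with its SE from limma, for the 49 members tested, grouped by role. The dashed line is the median of all genes tested, 5.38; points lie on both sides of 0, and none was called.

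Among the licensing genes, Mcm7 showed the largest difference. Its strength was 44.3, 29.4, 74.1 and 38.4 in GM no dox, 0, 16.7, 35.8 and 21.6 in GM +dox, 61.3, 77.5 and 53.5 in DM no dox and 63.4, 71.8 and 48.2 in DM +dox. All 6 DM libraries were above 7 of the 8 GM libraries, but GM no dox replicate 3 lay among them. The difference was 30.1 ± 9.91 percentile points (SE), with an unadjusted p of 0.00834 and an adjusted p of 0.236 by limma. Orc1, the largest subunit of the origin recognition complex, differed by 17.6 ± 8.56 (adjusted p = 0.389 by limma), with GM values of 37.8 to 92.6 and DM values of 54.7 to 92.6 that overlapped.

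Mcm2, a helicase subunit used as a proliferation marker, had a weak promoter peak. Its strength was 21.8 in replicate 3 of GM no dox and 35.6 in replicate 3 of GM +dox, and 0 in the other 6 GM libraries. In DM it was 0, 31.6 and 9.54 in the no dox arm and 0, 8.99 and 17.0 in the +dox arm. The groups overlapped and the difference was 4.01 ± 7.04. Only the DM libraries reached the number that the fit required, so no test of Mcm2 is given. Cdt1, which loads the helicase and is kept in check by geminin, had the lowest difference of the licensing genes, −10.1 ± 8.19 (adjusted p = 0.556 by limma), from a GM range of 41.7 to 80.2 and a DM range of 27.3 to 88.1. The summit of its strongest peak lay at −453 bp from the start, farther than for any member but Prim2 (−651 bp) and Gins1 (−698 bp).

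At the fork, Pcna had a strength of 67.9, 68.4, 91.6 and 88.0 in GM no dox and 82.3, 79.6, 87.9 and 91.8 in GM +dox. Its DM values were 89.7, 86.6 and 86.3 in the no dox arm and 86.6, 88.0 and 88.9 in the +dox arm. The DM libraries lay within the GM range, and the difference was 5.50 ± 3.97 (adjusted p = 0.520 by limma). The clamp loader subunits Rfc4 and Rfc2 had the most negative differences among fork genes, −16.1 ± 10.7 and −13.0 ± 9.91, whereas the flap nuclease gene Fen1 and the DNA ligase gene Lig1 had positive ones, 14.2 ± 9.51 and 13.4 ± 14.1. None of the 4 passed the test, the lowest adjusted p being 0.499. For Rfc4, 80.3, 35.4, 65.4 and 61.2 in GM no dox stood beside 12.5, 18.0, 47.0 and 39.8 in GM +dox. The difference between these GM groups, −31.2 (+dox minus no dox), was larger in size than that between media, −16.1.

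E2f1, the activator that opens S phase, had strengths of 67.7 to 98.6 in GM and 75.8 to 97.5 in DM, which overlapped, with a difference of 5.99 ± 5.09 (adjusted p = 0.577 by limma). The atypical repressors E2f7 and E2f8 and the cyclin genes Ccne1 and Ccne2 had differences between −0.90 and 10.3. Rrm1, which encodes the large subunit of ribonucleotide reductase, had strengths of 17.2, 61.2, 56.9 and 60.2 in GM no dox and 19.5, 34.4, 24.3 and 31.2 in GM +dox. In DM it had 52.8, 59.1 and 57.7 in the no dox arm and 28.7, 39.6 and 38.3 in the +dox arm. The +dox libraries were thus lower than the no dox libraries in both media, apart from GM no dox replicate 1, but the dox contrasts did not pass the test for this gene either.

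Of the mitotic genes, Ccnb1, the B-type cyclin that activates Cdk1, had strengths of 79.8, 73.7, 74.8 and 86.5 in GM no dox and 88.2, 67.3, 87.2 and 73.6 in GM +dox. In DM they were 86.8, 87.2 and 89.2 in the no dox arm and 81.4, 83.9 and 88.7 in the +dox arm. Of the 6 DM values 4 lay within the GM range and 2, from replicate 4 of each dox arm, above it, and the difference was 7.29 ± 3.86 (adjusted p = 0.421 by limma). Aurka, the spindle pole kinase, differed by 18.0 ± 9.44 (adjusted p = 0.419 by limma), with 4.57 in GM no dox replicate 1, 59.7 to 80.2 in the other GM libraries and 63.0 to 86.8 in DM.

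Mki67, the gene of the proliferation marker Ki-67, had strengths of 0, 55.9, 29.6 and 54.2 in GM no dox, 0, 19.5, 22.5 and 50.3 in GM +dox, 16.03, 48.5 and 20.6 in DM no dox and 0, 27.6 and 32.9 in DM +dox. Values of 0 and values near 50 occurred in both media, and the difference was −4.73 ± 11.03 (adjusted p = 0.850 by limma). The most negative differences of the mitotic genes were those of Ccnb2, −14.8 ± 15.2 (adjusted p = 0.643 by limma), and Foxm1, the forkhead activator of mitotic genes, −9.20 ± 6.93. Foxm1 had a peak among the strongest 14710 in 4 of 8 GM and 2 of 6 DM libraries. Only its GM libraries reached the number that the fit required, so no test of it is given. In the deposited lists its promoter peak was present in all 14. Aurkb had values above 0 in 3 GM libraries (29.1, 4.99 and 3.72) and in none of the 6 DM libraries, so that it entered the fit through its GM libraries alone and no test is given.

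Within each dox arm, differentiation gave no called member and no called gene among the 8833 (0.0%), with 1 member at an unadjusted p under 0.05 without dox (Rfc4, −35.6 ± 15.1, where 7.85% of all genes passed) and 2 with dox (where 6.34% passed: Mcm7, 42.6 ± 14.02, and Mcm4, 11.7 ± 5.30) by limma. Dox against no dox likewise called no member and no gene (0.0%) in GM or in DM. At an unadjusted p under 0.05 there were 2 members in GM, Rfc4 (−31.2 ± 14.02) and Mcm7 (−28.0 ± 13.0), where 3.19% of all genes passed, and 0 in DM, where 2.72% did. The median dox difference over members was 0.39 in GM and 0.00 in DM. With the replicate number as a block, the +dox arm gave 3 called genes, 0 of them members, by limma. Dox in GM gave 0 called genes with the block, the lowest adjusted p of a member being 0.596 by limma. At an unadjusted p under 0.05 by limma with the block, 7 members passed for dox in GM and 3 in the +dox arm. These counts have no share over all genes beside them, so they are not read as a result about the members. Without DM +dox replicate 2 the +dox arm gave 15 called genes, again 0 of them members. The interaction of dox and medium called 0 members and 0.0% of genes, with 0 members and 1.78% of genes at an unadjusted p under 0.05.

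Further genes of the same pathways gave no call by limma either, and at an unadjusted p under 0.05, which 13.3% of all genes passed, they gave few. Of 32 other replication genes, such as the remaining origin recognition subunits, RPA and the chromatin assembly factor, 28 were tested, 0 were called, 2 passed an unadjusted p under 0.05 and the median difference was 6.92. Of 38 other mitotic genes, including kinetochore, kinesin and condensin genes, 35 were tested, 0 were called, 3 passed unadjusted and the median was 2.82. Of 21 genes of cell cycle exit and the RB family, 13 were tested, 0 were called and 1 passed unadjusted. Their median difference was 10.5 and 11 of the 13 were positive, beside a median of 5.38 and 74.6% over all genes tested. E2F matches lay at 7 of the 31 replication genes with a promoter peak and 0 of the 38 mitotic genes, and CHR elements at 2 and 15 of them.

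Peaks outside the promoters were examined in the same way. Peaks of the 14 lists of common length were merged into 26213 regions, of which 88 lay in the gene bodies of members plus 10 kb: 52 at their own promoters, 17 at the start of another gene and 19 distal, more than 1 kb from any start. Of the 88, 78 had a peak in at least 3 libraries and were tested with limma among 19695 regions. In DM 2 of the 78 were called lower and 0 higher, no more than the share over the series, where 4.76% of all regions were called, 2.73% lower and 2.04% higher. No region of a member had its DM values all above or all below its GM values, as 1.63% of all regions did. At an unadjusted p under 0.05, 10 of the 78 passed (21.5% of all regions). Both called regions were among the 11 distal regions tested, a class in which 4.12% of regions were called lower over the series and 7.06% in either direction, as against 1.58% of regions near a start. That near Cdc6 met the requirement of 3 libraries only through its GM libraries, so no p is given for it below. The 50 own promoters and the 17 starts of other genes tested gave 0 calls by limma, with 2 in each class at an unadjusted p under 0.05. The median difference was −10.3 percentile points for the 11 distal regions, of which 5 were positive and 6 negative, beside −3.19 for all distal regions. It was 3.45 for the own promoters of members, beside 5.13 for all regions near a start. The 11 distal regions include those near Cdc6, E2f2 and Prim2 described below, which met the requirement only through the medium where they were high. Their median, their signs and the counts at an unadjusted p that hold them are therefore a description.

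The sequences of the 3 distal regions with the smallest p are shown over the 200 bases around the summit, plus strand of GRCm38, because they carry the differences described next. Capitals mark CCAAT boxes and AP-1 sites (TGANTCA, where N is any base), each on either strand; E2F, CHR and CAGCTG motifs were also searched and gave no match in them.
Cdc6 distal region: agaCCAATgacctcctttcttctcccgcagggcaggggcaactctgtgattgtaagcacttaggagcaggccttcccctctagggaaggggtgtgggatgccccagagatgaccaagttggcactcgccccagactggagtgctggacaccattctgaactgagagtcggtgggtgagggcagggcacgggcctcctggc
Pola2 distal region: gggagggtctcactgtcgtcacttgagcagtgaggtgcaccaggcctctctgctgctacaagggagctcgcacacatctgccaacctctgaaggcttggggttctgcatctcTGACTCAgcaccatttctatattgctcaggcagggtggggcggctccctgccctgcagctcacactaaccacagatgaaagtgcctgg
Cdc45 distal region: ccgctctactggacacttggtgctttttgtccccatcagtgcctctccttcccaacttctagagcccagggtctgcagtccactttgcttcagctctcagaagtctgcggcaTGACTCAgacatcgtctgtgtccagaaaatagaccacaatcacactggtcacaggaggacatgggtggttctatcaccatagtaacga
They lie at chr11:98930907-98931106, chr19:5945118-5945317 and chr16:18795546-18795745. AP-1 sites were found at the summits of 48.3% of the 16709 distal regions of the series and 47.4% of the 19 distal regions of members, compared with 7.17% of all promoters and 1.89% of member promoters. CAGCTG was found at 22.2% of all distal regions and 31.6% of those of members.

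The region near Cdc6 (chr11:98930717-98931818) lay in an intron of Rara, the retinoic acid receptor alpha gene that follows Cdc6 on the chromosome, 3189 bp from the nearest start, which is one of Rara. Its strength was 26.1, 68.7, 74.4 and 56.3 in GM no dox, 72.0, 73.8, 78.7 and 65.4 in GM +dox, 0, 0 and 0 in DM no dox and 37.3, 0 and 0 in DM +dox. All GM libraries had the region among their strongest peaks and 1 of 6 DM libraries did, though the DM value of 37.3 exceeded the lowest GM value. It was lower in DM by 58.2 ± 10.5 percentile points (SE). The region met the requirement of 3 libraries only through GM, the medium in which it was high. Its difference is therefore a description and no test of it is given. The differences were similar with and without dox, −60.0 ± 14.8 and −56.4 ± 14.8. The promoter of Cdc6 itself, with strengths of 60.3 to 89.8 in GM and 62.1 to 89.6 in DM, differed by 3.86 ± 6.47 (adjusted p = 0.788 by limma).

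The peak near Cdc6 did not disappear. In the deposited lists it was present in 8 of 8 GM and 5 of 6 DM libraries, with fold enrichments over the local background of 3.93 to 12.0 in GM and 4.78 to 9.55 in DM. These ranges overlapped through GM no dox replicate 1 (3.93) and DM +dox replicate 2 (9.55). The other GM libraries had 7.47 to 12.0, and the other DM libraries with a peak had 4.78 to 6.13. When any 1 of the 14 libraries was left out, the difference in strength ran from −64.4 to −55.1. It was −39.9 when all deposited peaks were ranked, −34.8 with lists of 7355 peaks and −4.62 when peaks were ranked by fold enrichment.

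In an intron of Pola2, which encodes the regulatory subunit of DNA polymerase alpha, a region at chr19:5944918-5946119 was accessible in all 14 lists. Its strength was 97.8, 95.8, 85.2 and 92.5 in GM no dox, 94.5, 93.1, 89.6 and 76.5 in GM +dox, 87.5, 68.3 and 76.9 in DM no dox and 85.1, 62.8 and 46.2 in DM +dox. The highest DM values lay within the GM range. It fell by 19.5 ± 5.39 percentile points, with an adjusted p of 0.0483 by limma. Its fold enrichments overlapped, at 8.33 to 14.1 in GM and 8.56 to 14.5 in DM, in libraries of different depth. The difference was −7.27 (adjusted p = 0.236) when all deposited peaks were ranked and −16.7 (adjusted p = 0.508) when peaks were ranked by fold enrichment. This call was close to the threshold: it held when the library left out was replicate 4 of GM +dox or replicate 2 of either DM group, and was lost in the other 11 fits that left out 1 library, with an adjusted p of up to 0.114. The Pola2 promoter itself was weak, with values above 0 in 3 GM libraries and 1 DM library.

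Another region, in an intron of Cdc45 (chr16:18795169-18795909), had strengths of 89.0, 64.2, 80.8 and 6.33 in GM no dox and 61.8, 42.1, 22.6 and 44.8 in GM +dox. In DM it had 0, 9.55 and 0.163 in the no dox arm and 0, 35.8 and 0 in the +dox arm. The difference was −43.9 ± 12.9, with an adjusted p of 0.0612 by limma that did not pass. Over the 14 fits that left out 1 library the adjusted p ran from 0.0140 (−52.8, without GM no dox replicate 4, the library with the low GM value) to 0.151 (without DM +dox replicate 4), and the first was the only one under 0.05. In the deposited lists the peak was present in 8 of 8 GM and 6 of 6 DM libraries, with fold enrichments of 9.11 to 19.1 and 7.59 to 17.0, which overlapped. The promoter of Cdc45 differed by −2.17 ± 8.04.

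Next among the distal regions in order of p came a region upstream of E2f2 (chr4:136164988-136165442), with values above 0 in 6 of 8 GM libraries, up to 30.7, and at 0 in all 6 DM libraries. A region in an intron of Prim2 (chr1:33583933-33584624) was at 0 in all 8 GM libraries and at 23.8, 18.8 and 48.2 in 3 of 6 DM libraries. Both met the requirement of 3 libraries only through the medium in which they were high, so their differences are a description and no test of them is given. Within each arm, dox and interaction contrasts called 0 of the 78 regions, where 0.665%, 0.924%, 0.00508%, 0.178% and 0.0% of all regions were called, with 6 (DM against GM without dox), 6 (with dox), 2 (dox in GM), 1 (dox in DM) and 2 (interaction) at an unadjusted p under 0.05 by limma. Over all regions these unadjusted shares were 12.9%, 12.5%, 6.03%, 6.5% and 3.14%.

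**Figure D5:**
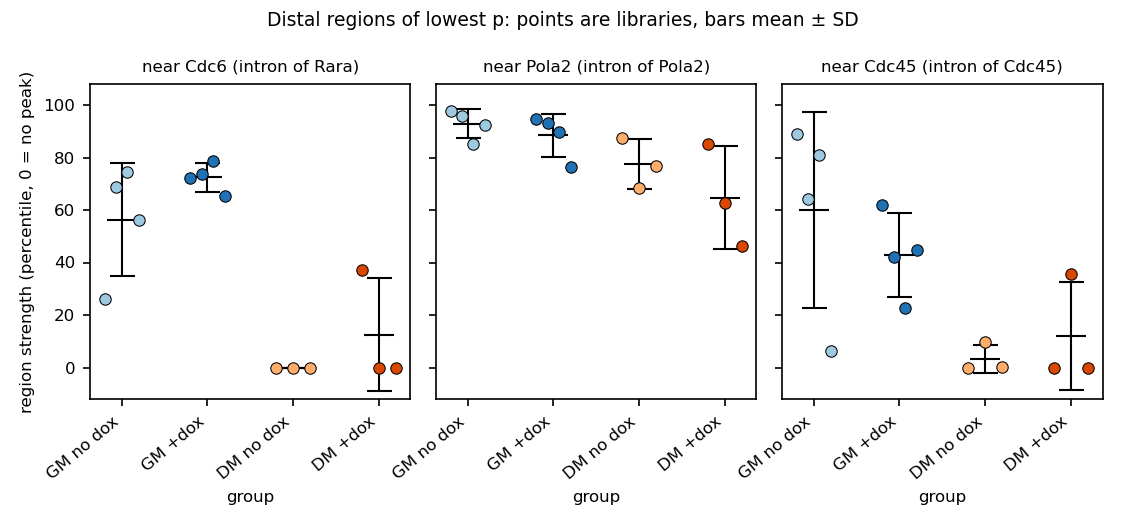
Strength of the 3 distal regions with the smallest p, as the percentile among the 14710 strongest peaks (vertical axis), in the 4 groups. Points are libraries and bars the mean ± SD; near Cdc6 the GM libraries spanned 26.1 to 78.7 and 5 of 6 DM libraries were at 0.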

How the data were processed

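ATAC-seq was carried out on 16 libraries. The authors processed the reads against mm10 with the nf-core/atacseq pipeline, removed blacklisted regions and called peaks in each library alone with MACS2, at a q under 0.05 as the deposited values show; versions of deepTools and MACS2 were not given in the sources used here. The deposited peak lists give a score, a fold enrichment, −log10 p and −log10 q values and a summit. No reads or coverage were used here, so no value between peaks is known and each value is the authors' peak call in 1 library. Depth was inferred from the deposited fold enrichments and p-values.

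Genes came from GENCODE M21. The members and the gene lists were chosen with earlier results of these data known. Peaks were ranked by −log10 p within a library, the 14710 strongest were kept in each list, and a gene's strength was 100 × (1 − (rank − 1)/14710) for its strongest peak with a summit within 1 kb of a start, or 0. Peaks overlapping by at least 1 bp were merged into regions and given the same measure. Strengths above 0 in at least 3 of 14 libraries were fitted with limma 3.58.1 in R 4.3.3 (4 group means, moderated variances with a trend, Benjamini-Hochberg over all genes or regions, threshold 0.05), after a test on simulated data. GM and DM were the means of the 2 dox arms. Tables were made with Python 3.11.15, numpy 2.4.6, pandas 2.3.3 and scipy 1.17.1, and figures with matplotlib 3.10.9.

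Named members were 6 that stand for the roles (Mcm2, Pcna, Rrm2, E2f1, Ccnb1, Mki67), those called in any contrast, the 5 largest rises and falls, those missing from a kept list, the strongest of each role and the 5 distal regions with the smallest p; other members are named as examples chosen after their values were seen. Replicates are biological per the labels. Same-numbered libraries were checked for pairing by the correlation of their deviations from the group means. All same-number correlations were over 0.1 for GM no dox with GM +dox (lowest 0.104), GM +dox with DM +dox (0.190) and GM no dox with DM +dox (0.113). Different numbers reached 0.231, 0.195 and 0.175 there, with medians of −0.0911, −0.125 and −0.0750. The ranges overlapped, so pairing was not established. In every pair of groups, however, all same-number correlations were positive and the median over different numbers was negative. Libraries of the same number thus shared deviations, which fits without the block do not take out. Same-number correlations were not all over 0.1 for DM no dox with GM no dox (lowest 0.0662), GM +dox (0.0364) or DM +dox (0.0635). By the mark of 0.1, blocked values are given for dox in GM and for DM against GM with dox, and the fits over both dox arms were left without the block. The AP-1 motif was added after seeing the data. Mean and SD are over libraries.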

Additional observations from a re-analysis of the deposited data

Results flagged for a closer look

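In 56 groups of 4 libraries, 8 held 1 library set apart from the others by Dixon's test at the 95% level. For normally distributed values chance sets apart about 1 in 20 groups, a rate that does not hold for strengths, which stop at 0. Any single value above 0 gave a Dixon ratio of 1.0 where the other libraries of the group stood at 0. Mcm2 in both GM groups and Foxm1 in GM +dox were such cases, so the count of 8 is a description. In GM no dox replicate 1, which had the shortest list, 75.9% of members had a peak in the gene body plus 10 kb, against 96.3% to 98.1% in the other replicates. The same library had a strength of 4.57 for Aurka (62.1 to 70.2 in the others) and 17.2 for Rrm1 (56.9 to 61.2).

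Mcm2 was above 0 only in replicate 3 of each GM group, at 21.8 in GM no dox and 35.6 in GM +dox. Foxm1 stood at 36 in GM +dox replicate 4 and at 0 in the other replicates of that group. The distal region upstream of E2f2 had a strength of 6.38 in GM no dox replicate 2 (0 to 0.707 in the others). Orc6 had 98.8 in GM +dox replicate 1, against 99.7 to 99.9 in the others, a gap of about a percentile point.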

How the results depend on the processing

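Peak lists limit what can be seen: a gene below the 14710 strongest peaks counts as 0, and the strengths of 1 library share its depth and list. The number of members with a called promoter was 0 under every alternative, and 0 in each fit without 1 library. Promoters of all genes called (25) became 12 with all 16 libraries, 5 with all deposited peaks, 13 ranked among promoters only, 16 without the filter, and 0 at 7355 peaks, ranked by fold enrichment, on the log2 of the rank, with a 500 bp window or with replicate numbers 1 and 2 or 3 and 4 alone. Called regions of the series (938) became 521 with all 16 libraries, 195 at 7355 peaks, 124 by fold enrichment and 0 with either pair of replicate numbers. Called regions near members (2) became 1 without the filter and 0 at 7355 peaks, with all deposited peaks, by fold enrichment or with either pair of numbers. The share of members with a promoter peak was 76.6% in GM and 79.6% in DM at common list length. In the lists as deposited, all 16 libraries gave a DM share of 77.5%, a difference of −14.6 percentage points from the GM share of 92.1%. With the replicate number as a replicate block the members had 0 called promoters, the regions near them 2, all promoters 31 and all regions 1348. Within the +dox arm, where no promoter of any gene was called, 3 were called with the block, 6 with all deposited peaks, 3 with a window of 2 kb and 2 without the filter, and 15 without DM +dox replicate 2.

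Leaving out 1 library gave 0 to 51 called promoters, 505 to 1158 called regions and 1 to 3 called regions near members. The members' median difference ranged from 0.784 to 6.59, the GM share from 91.3% to 96.3%, the DM share from 94.4% to 95.9% and their difference from −1.23 to 3.80.

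Differences that changed sign, none of them called, were E2f1 −6.64, Ccnb1 −4.01, Aurka −1.44, Orc1 −2.92, Orc6 −1.18, Rrm1 −3.58, Ccna2 −11.8 and Cdc20 −9.08 with all 16 libraries. They were Rrm1 −0.56 at 7355 peaks, Mki67 4.35 with all deposited peaks, Mcm2 −0.12, Rrm1 −2.44 and Cdc20 −0.226 among promoters only, Cdt1 12.7 with a 500 bp window and Lig1 −0.81 with the block. With numbers 1 and 2 they were Foxm1 4.70, Ccna2 −0.313 and Cdc20 −3.21, and with 3 and 4 Pcna −2.38. Leaving out 1 library, Mcm2 ranged from −0.458 to 8.46, Cdc20 from −0.144 to 3.95 and Mki67 from −10.5 to 0.311, and the changed signs came without DM no dox replicate 3 (Mcm2, Cdc20) and DM +dox replicate 2 (Mki67). The cause of these changes was not tested.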
